A study of Mus musculus with 10 samples.

Results

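The genes described here are the enzymes and regulators with which a cell makes cholesterol and fatty acids. They were listed by name from their textbook roles, with earlier results of these data known. The rule kept those with a value of at least 1 in 2 or more of the 10 libraries, which is also the filter of the genes tested. They comprise 7 genes of the mevalonate and isoprenoid steps and 11 of the steps from squalene to cholesterol. The others are a group of 6, made up of regulators and a sterol carrier, and 8 genes of fatty acid synthesis and desaturation. All 32 were found among the 45195 gene IDs of the deposited table, and all 32 were among the 15712 genes tested. The RNA came from neurites of mouse cortical neurons taken from E16.5 embryos and grown on membranes with 3 µm pores, through which axons and dendrites pass while cell bodies stay above. Neurons were C57BL/6 wild type or Cpeb1 flox/flox on that background, and every culture, controls included, received AAV2 carrying Cre under the ubiquitous CAG promoter at plating, so that the control groups differ from the knockout groups in the floxed allele and not in the virus. Cpeb1 encodes a protein that binds a short element in the 3′ untranslated region of mRNAs. Injured neurites were scraped from the underside on day 7 and collected 24 hours later, on day 8, so that injury and the age of the regrown neurites cannot be told apart. The wild-type groups had 3 libraries each, naive and injured, and the knockout groups 2 each.

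Cholesterol synthesis starts from acetyl-CoA, passes through mevalonate and isoprenoid units to squalene, and ends after ring closure with a series of sterol modifications. The genes of this route and many of those for fatty acids are activated by the transcription factors SREBP-1 and SREBP-2 (Srebf1, Srebf2), which the escort protein SCAP carries from the endoplasmic reticulum to the Golgi when sterols are low, while INSIG proteins retain the complex when sterols are high. The brain makes its own cholesterol because lipoprotein cholesterol of the blood does not enter it, and both neurons and astrocytes take part.

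SREBP proteins bind sterol regulatory elements in promoters, usually next to sites for NF-Y and Sp1, and the promoters of 4 genes whose values are described below are shown for this reason. They come from RefSeq on GRCm38.p6 and run from 250 bases before to 50 bases after the transcription start, 5′ to 3′ on the gene's strand. Capitals mark every match, on either strand, to the sterol regulatory element TCACCCCAC, the E-box CACGTG, the NF-Y box CCAAT and the Sp1 box GGGCGG. The stretches lie at chr13:119690101-119690400 (+ strand, Hmgcs1), chr5:28071162-28071461 (+ strand, Insig1), chr8:122443373-122443672 (- strand, Mvd) and chr17:12960676-12960975 (- strand, Acat2).
Hmgcs1: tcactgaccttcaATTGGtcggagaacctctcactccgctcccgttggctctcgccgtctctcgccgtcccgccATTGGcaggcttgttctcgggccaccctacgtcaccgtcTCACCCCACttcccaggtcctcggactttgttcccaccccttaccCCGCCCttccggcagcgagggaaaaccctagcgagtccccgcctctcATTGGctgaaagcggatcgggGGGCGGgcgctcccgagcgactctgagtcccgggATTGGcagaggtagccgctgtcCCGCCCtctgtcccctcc
Insig1: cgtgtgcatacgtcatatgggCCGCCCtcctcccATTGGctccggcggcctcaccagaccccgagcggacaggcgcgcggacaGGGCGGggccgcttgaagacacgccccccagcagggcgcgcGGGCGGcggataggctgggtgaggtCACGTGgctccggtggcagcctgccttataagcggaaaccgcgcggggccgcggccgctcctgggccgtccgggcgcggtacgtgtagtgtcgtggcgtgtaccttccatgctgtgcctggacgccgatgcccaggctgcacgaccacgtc
Mvd: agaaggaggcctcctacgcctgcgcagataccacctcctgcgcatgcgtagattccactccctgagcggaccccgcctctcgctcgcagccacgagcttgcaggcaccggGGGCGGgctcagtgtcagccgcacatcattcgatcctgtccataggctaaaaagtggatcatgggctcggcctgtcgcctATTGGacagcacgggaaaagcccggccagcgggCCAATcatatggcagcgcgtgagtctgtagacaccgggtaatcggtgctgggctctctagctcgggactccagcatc
Acat2: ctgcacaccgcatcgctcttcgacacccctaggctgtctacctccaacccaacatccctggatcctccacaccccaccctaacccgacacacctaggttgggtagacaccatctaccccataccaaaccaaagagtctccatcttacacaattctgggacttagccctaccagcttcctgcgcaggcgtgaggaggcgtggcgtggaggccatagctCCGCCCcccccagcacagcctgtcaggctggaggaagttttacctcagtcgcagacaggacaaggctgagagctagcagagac

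The Hmgcs1 stretch holds the sterol regulatory element 137 bases before the start, with 4 NF-Y boxes and 3 Sp1 boxes around it. Insig1 holds an E-box 101 bases before the start, 1 NF-Y box and 3 Sp1 boxes. The Mvd stretch has a pair of NF-Y boxes at 27 and 60 bases and an Sp1 box at 140 bases before the start, and that of Acat2 has 1 Sp1 box at 33 bases. Of the 25 members with an entry in the RefSeq table, 20 (80.0%) held CCAAT, against 43.1% of the 10904 tested genes with an entry. GGGCGG was present in 21 (84.0%), against 68.4%, and CACGTG in 5 (20.0%), against 11.6%. The element TCACCCCAC was present in 1 member (4.0%), against 0.651%, and with 1 base left free (TCACNCCAC, which takes in every match to TCACCCCAC) still in 1 member, against 1.36%. A match describes letters in this window and is not evidence of a bound site. Stard4, Fads1, Fdps, Fdft1, Sqle, Scd2 and Scd1 had no entry.

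The values are fragments per kilobase per 1e6 fragments (FPKM), apparently divided by a factor per library (the scale was inferred from the values and is not stated). Depth was estimated at 21.4 to 27.7, in units of 1e6 fragments, and the libraries had 12231 to 13143 genes at a value of at least 1. The check of the deleted gene did not separate the groups. Naive wild-type libraries had Cpeb1 values of 7.16, 5.96 and 5.86, and the injured ones 1.65, 13.8 and 22.6. Under the knockout label, Cpeb1 was 5.97 and 0.356 before injury and 1.14 and 3.15 after it. Thus replicate 1 of the libraries labelled knockout naive had a Cpeb1 value within the wild-type naive range. Wild-type injured replicate 1 lay within the range of the labelled knockouts. The deleted exons are not named, so a value over the whole gene may count exons that were kept and cannot settle a label. Directions drawn from genotype rest on labels that this value does not bear out in every library. Wild-type injured replicate 3 stood apart from the rest, with a mean correlation of 0.839 with the other libraries, against 0.867 to 0.898 for the others. Counts are therefore also given without 2 pairs of libraries: labelled knockout naive replicate 1 with wild-type injured replicate 3 (the first pair), and labelled knockout naive replicate 1 with wild-type injured replicate 1 (the Cpeb1 pair). Each leaves replicate 2 as the only labelled knockout naive library. Neuronal markers were present in all libraries, and so were markers of astrocytes and radial glia. The labels do not say that replicates came from separate cultures, so p-values rest on the spread among these libraries, which may be technical.

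Transcripts for the whole route were present in neurites, where a value of at least 1 in 2 libraries was a condition of the rule. Every one of the 32 genes had a value of at least 1 in all 10 libraries and a mean level above the median of the tested genes, from the 50.9th percentile (Stard4) upwards, and 12 of the 32 lay in the top 10%. The highest were Fdps, which makes farnesyl diphosphate (mean level 452), Hmgcs1, the cytosolic HMG-CoA synthase (283), and Fads2, a fatty acid desaturase (243). The lowest were Stard4, a sterol carrier (8.05), Ebp, the sterol isomerase (8.37), and Acaca, the acetyl-CoA carboxylase that commits carbon to fatty acids (8.73).

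**Figure D1:**
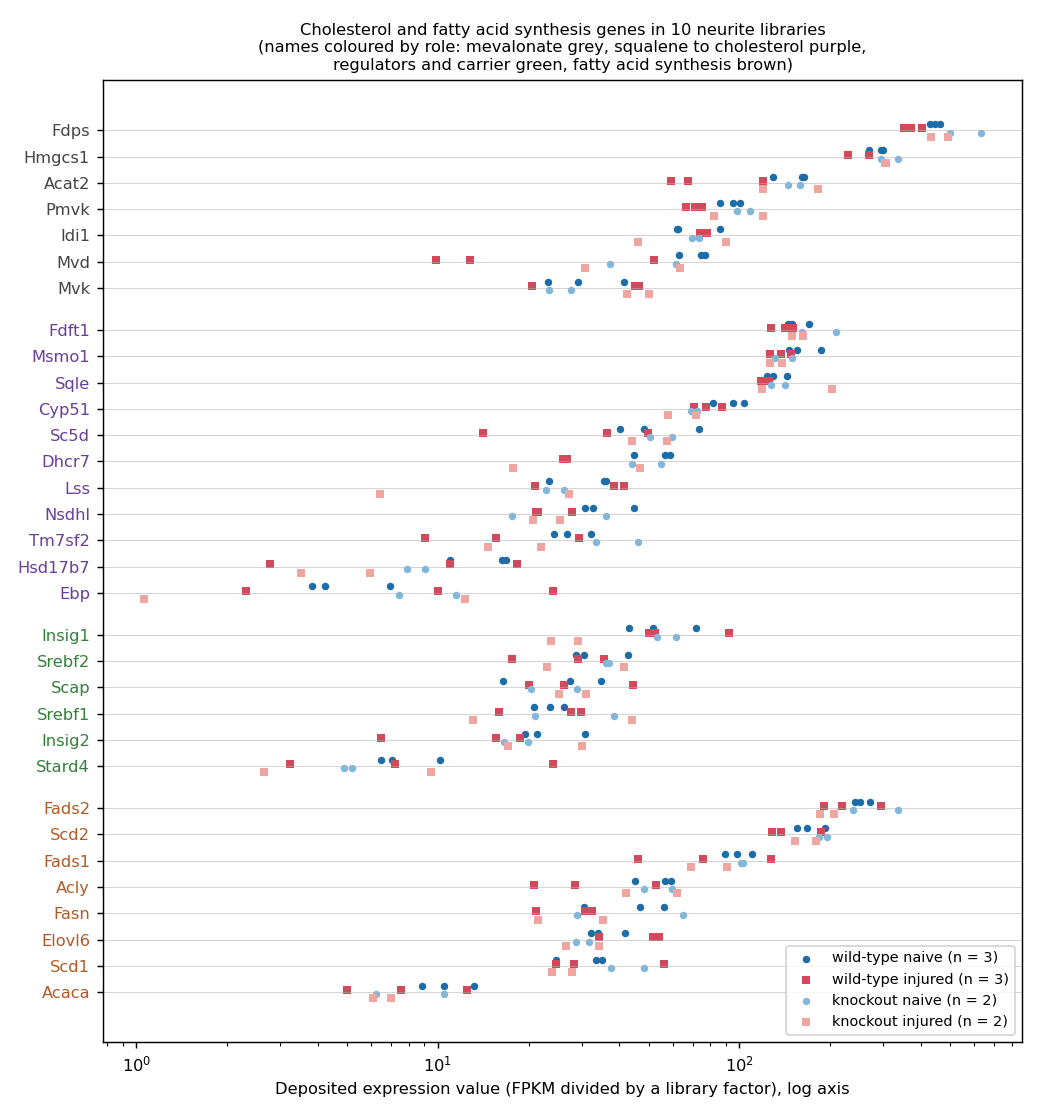
Deposited value of each of the 32 genes in each library, on a log axis, ordered by role and level, with 1 point per library and colours for the 4 groups. Levels between genes span from about those of Stard4 (mean 8.05) to those of Fdps (mean 452), a wider range than that between groups of any 1 gene.

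In wild-type neurites, the point estimates of most members lay below 0 after injury, and none passed the test. By limma on log2(value + 1) across all genes, 0 of 32 members had an adjusted p under 0.05, against 0.948% of all tested genes. At an unadjusted p under 0.05, 4 were lower, against 6.24% of all genes, and 0 were higher, against 7.66%. The fold change was below 0 for 22 of the 32, against 49% of all genes, with a median of -0.25 on the log2 scale against 0.01 over all genes. Injured and naive libraries did not overlap in 7 members, all lower after injury, where 8.02% of all genes lay lower without overlap and 9.78% higher. Without the first pair 26 of the 32 fold changes were below 0, with a median of -0.22, and without the Cpeb1 pair 25, with a median of -0.19, and none passed in either. In bulk RNA, fewer neurites of a kind and less RNA in each cannot be told apart.

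Among the mevalonate genes, Mvd, the decarboxylase that makes isopentenyl diphosphate (ENSMUSG00000006517, chr8:122433601-122443422, - strand, mm10), had the largest difference. Wild-type values were 76.9, 74.4 and 63.1 before injury, and 9.88, 52.3 and 12.8 after it. Replicates 1 and 3 of the injured group were far below every naive library, while replicate 2 was just below the lowest of them. The log2 fold change was -1.85 ± 0.50 (SE, n = 3 and 3; limma adjusted p = 0.12). Without wild-type injured replicate 2 it was -2.56 and passed the threshold (limma adjusted p = 0.00593).

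Acat2, the cytosolic thiolase of the opening step (ENSMUSG00000023832, chr17:12942890-12960747, - strand), behaved alike across the same libraries. It stood at 162, 129 and 163 in naive and 67.3, 119 and 59.4 in injured wild-type neurites, so that the groups did not overlap but replicate 2 was close to the naive range. The log2 fold change was -0.94 ± 0.26 (SE; limma adjusted p = 0.136). Leaving out replicate 2 brought it to -1.24, past the threshold (limma adjusted p = 0.0204). Pmvk, the phosphomevalonate kinase, was at 101, 94.9 and 86.4 in naive and 71.4, 66.7 and 75.3 in injured libraries (-0.40 ± 0.20, SE; limma adjusted p = 0.399). Fdps was at 429.8, 461 and 446 in naive and 404, 371 and 351 in injured libraries (-0.25 ± 0.15, SE; limma adjusted p = 0.479). These 2 genes had small differences with little scatter, and neither overlapped between groups. Hmgcs1 was at 295, 299 and 268 in naive and 228, 269.9 and 229 in injured libraries, which overlapped by replicate 2 alone. Its 95% interval ran from -0.57 to 0.08 on the log2 scale. Mvk, the mevalonate kinase, overlapped widely, at 29.0, 41.4 and 23.3 in naive and 20.5, 44.9 and 46.3 in injured libraries. Idi1, which isomerises isopentenyl diphosphate, was between 62.2 and 86.0 in naive and between 73.7 and 78.2 in injured libraries. In this group of 7 genes, 5 fold changes were below 0, with a median of -0.25.

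From squalene to cholesterol, 9 of 11 fold changes were below 0, again with a median of -0.25. Dhcr7, the reductase of the last step (ENSMUSG00000058454, chr7:143823145-143848410, + strand), did not overlap between groups. It was at 44.6, 56.7 and 58.7 in naive and 26.6, 26.8 and 25.9 in injured wild-type neurites. The 3 injured libraries were nearly equal and lay well under the naive ones, with a difference of -0.97 ± 0.32 on the log2 scale (SE; limma adjusted p = 0.204). Nsdhl, a sterol dehydrogenase, also did not overlap, at 30.9, 32.8 and 44.6 in naive and 21.2, 27.9 and 21.4 in injured libraries. Sc5d, the sterol desaturase, was at 40.1, 48.3 and 73.5 in naive and 36.5, 49.8 and 14.1 in injured libraries, where the low value is that of replicate 3. Tm7sf2, a sterol reductase, was at 24.3, 26.9 and 32.2 in naive and 15.6, 9.08 and 29.3 in injured libraries, and here replicate 3 was the highest of the injured group. Cyp51, the lanosterol demethylase, was at 82.0, 94.95 and 103.6 in naive and 77.3, 87.5 and 70.6 in injured libraries. Fdft1, the squalene synthase, was at 149.9, 145 and 171 against 128, 151 and 142. Lss, the cyclase that closes the sterol rings, stood at 36.1, 23.3 and 35.6 against 38.4, 41.3 and 20.97. Ebp had the widest scatter, at 6.95, 3.82 and 4.22 against 9.999, 2.31 and 24.0. None of these passed the test. Sqle, the squalene epoxidase, lay between 118 and 143 in all 6 wild-type libraries, and Msmo1 lay between 127 and 186. Hsd17b7 ranged from 2.79 to 18.3.

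The regulators had no common direction in wild-type neurites, with 4 fold changes above 0, 2 below and a median of 0.07. Insig1 (ENSMUSG00000045294, chr5:28071363-28078662, + strand) was at 51.7, 71.9 and 43.0 in naive and 92.0, 50.1 and 52.4 in injured libraries, which overlapped. Its relative Insig2 was at 30.7, 21.3 and 19.4 in naive and 15.6, 18.8 and 6.49 in injured libraries, without overlap (-0.85 ± 0.41, SE; limma adjusted p = 0.378). Stard4 was at 7.05, 10.1 and 6.48 against 3.23, 7.22 and 24.2. The ratio of Insig1 to Insig2, both per length, was 1.68, 3.38 and 2.22 in naive and 5.89, 2.67 and 8.06 in injured wild-type libraries, which overlap by injured replicate 2. Srebf1, Srebf2 and Scap overlapped between groups, with values from 16.0 to 44.2 over the 6 libraries.

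In fatty acid synthesis, 6 of 8 fold changes were below 0, with a median of -0.28. Acly, the ATP citrate lyase that supplies cytosolic acetyl-CoA to both routes, was at 56.7, 59.3 and 45.0 in naive and 20.9, 52.9 and 28.4 in injured wild-type libraries. The low replicates 1 and 3 and the near-naive replicate 2 are those seen for Mvd and Acat2 (-0.74 ± 0.32, SE; limma adjusted p = 0.329). Fasn, the fatty acid synthase, was at 56.3, 30.5 and 46.8 in naive and 21.2, 32.4 and 30.7 in injured libraries (-0.62 ± 0.36, SE; limma adjusted p = 0.465). Acaca was at 10.48, 8.89 and 13.1 against 4.99, 12.5 and 7.53. The stearoyl-CoA desaturase Scd1 stood at 35.1, 24.7 and 33.5 against 24.6, 28.3 and 56.3, and Fads2 at 251, 241 and 270.6 against 191, 219 and 295. For both desaturases the highest wild-type value was that of injured replicate 3. Scd2 and Fads1 ranged from 129 to 192 and from 45.9 to 127. Elovl6, an elongase, was at 33.8, 32.1 and 41.7 in naive and 54.0, 34.1 and 51.5 in injured libraries.

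**Figure D2:**
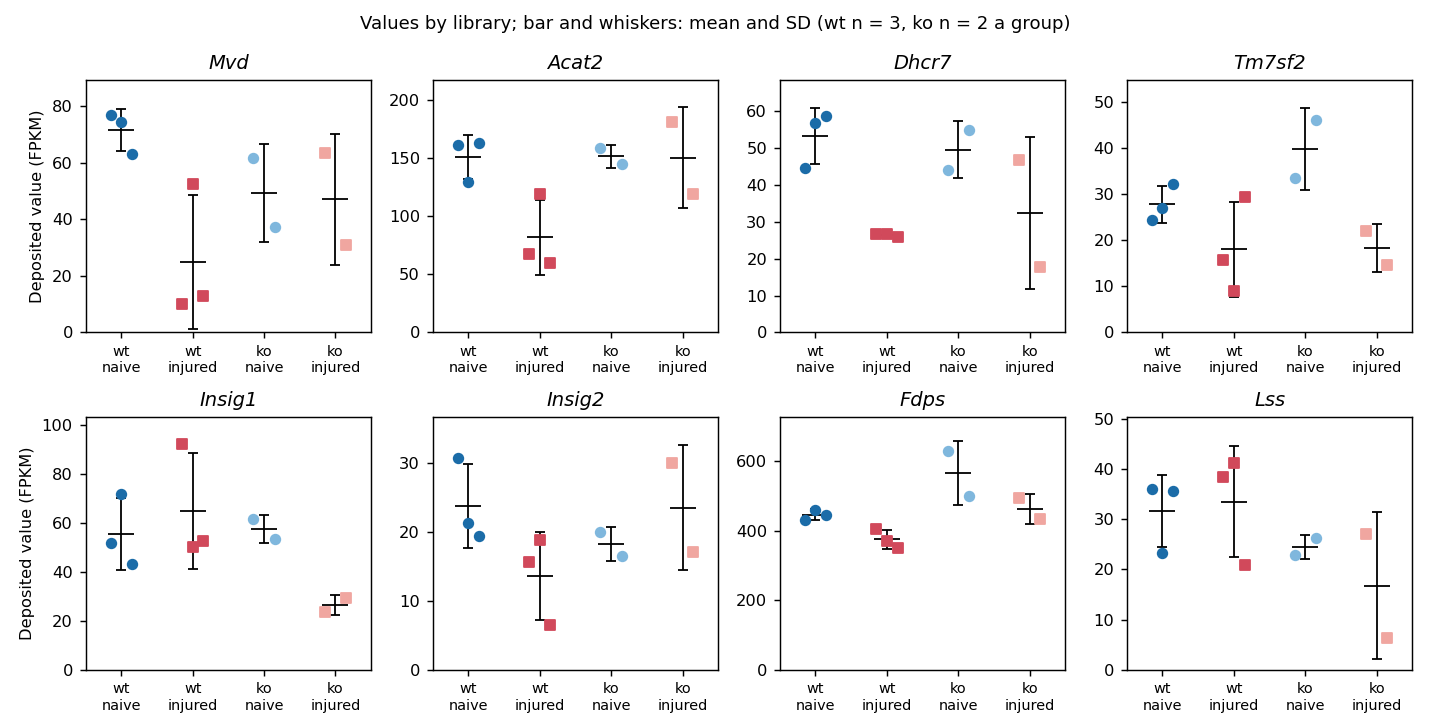
Values of 8 members by library (vertical axis: deposited value), with 1 panel per gene, a point per library and the group mean with its SD. Mvd and Acat2 are low in 2 of 3 wild-type injured libraries, Dhcr7 is low in all 3, and Insig1 is low in both libraries labelled knockout injured.

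In neurites labelled knockout, injury gave 26 of 32 fold changes below 0, against 56.1% of all genes, with a median of -0.17 against -0.09. None of the 32 passed (limma adjusted p under 0.05 in 0.0573% of all genes), and the smallest adjusted p of a member in this limma test was 0.67. With either pair left out 22 of the 32 were below 0, with a median of -0.15. Here the pairs are the same check, as both leave replicate 2 as the only labelled knockout naive library. At an unadjusted p under 0.05, 3 were lower, against 4.05% of all genes, and 0 higher, against 1.68%. With libraries scaled to equal sums the members' median turned to 0.09, and that of all genes was then 0.10. The groups did not overlap in 8 members that were lower, against 22.1% of all genes, and in 1 that was higher, against 13.5%. With 2 libraries against 2, separation of the groups is common, and the count of lower members is near the background.

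Insig1 was lowest in the libraries labelled knockout injured, at 23.6 and 29.2, with 61.6 and 53.4 in those labelled knockout naive (-1.10 ± 0.35, SE, n = 2 and 2; limma adjusted p = 0.67). Tm7sf2 was at 21.9 and 14.6 after injury and 33.5 and 46.1 before it (-1.09 ± 0.47, SE). Of the 8 genes of fatty acid synthesis, 4 did not overlap, all lower after injury, where 22.1% of all genes lay lower without overlap. These 4 are desaturases, and none passed. Fads2 was at 206 and 186 after injury and 335 and 238 in naive neurites (-0.53 ± 0.24, SE), Scd1 at 27.9 and 23.9 against 37.5 and 48.1, Scd2 at 180.0 and 153 against 184 and 195, and Fads1 at 90.7 and 69.3 against 103 and 101. The median of the 8 genes was -0.32. Mvk was the member that lay higher without overlap, at 50.1 and 42.5 against 23.3 and 27.7 (0.84 ± 0.42, SE). Neither Acat2, at 182 and 120 after injury and 159 and 145 before, nor Mvd, at 63.4 and 30.7 against 61.6 and 37.1, differed beyond the spread of the labelled knockouts, and their 95% intervals were wide (for Acat2 from -0.73 to 0.65).

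Averaged over both genotypes, 27 of 32 fold changes for injury were below 0, against 54% of all genes, with a median of -0.28 against -0.04, and without the first pair again 27 (median -0.26), without the Cpeb1 pair 26 (median -0.23). None passed in limma (0.566% of all genes did). At an unadjusted p under 0.05, 6 were lower, against 6.53% of all genes, and 0 higher, against 4.89%. Dhcr7 had the smallest p, with values of 46.8 and 17.8 in labelled knockout injured and 44.1 and 54.9 in labelled knockout naive libraries beside the wild-type values above, and the difference was -0.86 ± 0.25 on the log2 scale (SE; limma adjusted p = 0.19). Without the library labelled knockout injured replicate 1 it was -1.20 and passed (limma adjusted p = 0.0429), and without replicate 2 of that group it was -0.52 (limma adjusted p = 0.541). Mvd was at -0.98 ± 0.39 (SE; limma adjusted p = 0.362), and leaving out wild-type injured replicate 2 brought it to -1.34 (limma adjusted p = 0.0352), while without the Cpeb1 pair it was -0.58 (limma adjusted p = 0.698). Fold changes were below 0 in both genotypes for 20 members, above 0 in both for 4 and opposite for 8, where 29.9% of all genes were below 0 in both. Only Fdps had no overlap in either genotype, lower after injury in both (2.99% of all genes), and none had no overlap on the higher side in both (2.18%). For 21 of the 32 (65.6%) the 95% interval of the mean injury difference lay wholly within 1 log2 unit of 0, against 32.6% of all genes. The 2 shares were not matched by level: all members lay above the median level, and the median SE was 0.254 for members and 0.409 for all genes.

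**Figure D3:**
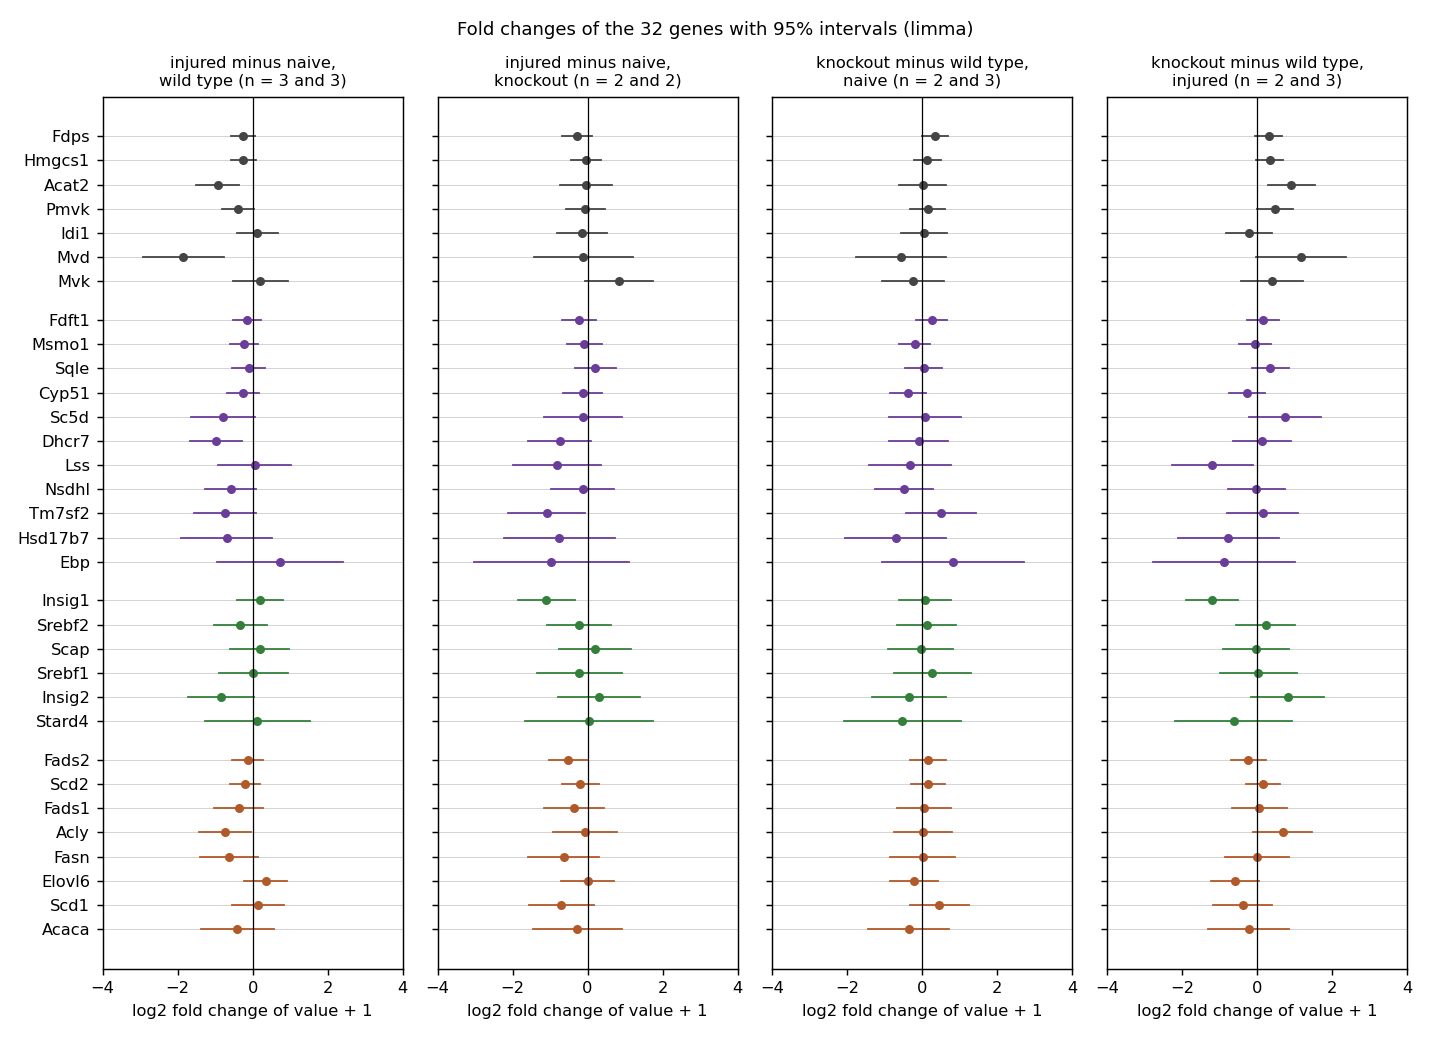
Log2 fold change (horizontal axis, value + 1) and 95% interval of each member for injury in each genotype and for genotype in each condition, from limma, grouped by role. Most injury estimates lie left of 0 (22 and 26 of 32), and the intervals of the low-level genes such as Ebp are the widest.

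In wild type, the summed level of the 7 mevalonate genes was 1179, 1162 and 1113 before injury and 876, 1002 and 848 after it, with no overlap. For the 11 genes from squalene to cholesterol the sums were 720, 757 and 818 against 624, 677 and 606, again with no overlap. Fatty acid synthesis overlapped, at 697, 654 and 753 against 521, 562 and 783. In the labelled knockouts the mevalonate sum was 1347 and 1218 in naive and 1303 and 1061 in injured neurites, which overlapped. The other sums did not overlap there and were lower after injury. They were 753.5 and 734.7 against 726 and 605.5 from squalene to cholesterol, and 812 and 709 against 622 and 549 for fatty acid synthesis. The regulators, which overlapped in wild type, were at 181 and 161.5 against 136 and 154. As a percent of each library's sum, all of these overlapped in the labelled knockouts (squalene to cholesterol 0.0771 and 0.0882 against 0.0979 and 0.0791). On that scale wild-type fatty acid synthesis did not overlap, at 0.0859, 0.09 and 0.0934 against 0.0602, 0.0653 and 0.0668.

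Markers of cell types and of nuclear RNA moved with these sums in wild type. The sum of 9 neuron markers was 4435, 3968 and 4387 before and 3019, 3487 and 2631 after injury in wild type, and 5013 and 4580 against 4496 and 3455 in the labelled knockouts. The sum of 14 astrocyte markers was 1403, 1633 and 1858 against 2753, 2269 and 4755 in wild type, and 2309 and 1860 against 1983 and 2319 in the labelled knockouts. Thus the neuron marker sum, like the sterol sums, was lower in every wild-type injured library, and the astrocyte sum was higher there. In wild type, 13 of 14 astrocyte markers had fold changes above 0, and of these Sox9 (1.87) and Glul (1.26) passed in limma, while 8 of 9 neuron markers were below 0 and 0 passed. The most abundant astrocyte gene was Apoe, from 769 to 2519, and the defining astrocyte gene Gfap was above 0 in all 10 libraries (83.0 to 558). Radial glia markers (9 genes) summed to between 2294 and 2813 before and between 2574 and 4842 after injury in wild type, and between 3146 and 4237 in the labelled knockouts. Most of this sum was Fabp7 (2106 to 4075 over the 10 libraries). In wild type 1 of the 9 passed as higher in limma, where 0.948% of all genes passed in either direction. The sum of 10 interneuron markers was 455 to 713 before and 57.0 to 90.3 after injury in wild type, and 489 and 857 against 65.4 and 113 in the labelled knockouts. In wild type 5 of these 10 passed as lower. Of 11 microglia and macrophage markers, Cx3cr1, Tmem119, C1qc and Trem2 were at 0 in all 10 libraries, while Tyrobp reached 30.9, Cd68 16.2 and C1qb 11.3. The sum of the 6 tested was 2.93 to 11.1 in wild-type naive, 10.3 to 16.2 in wild-type injured, 46.6 and 32.9 in labelled knockout naive, and 3.91 and 33.9 in labelled knockout injured libraries. RNA kept in the nucleus was present although cell bodies were wiped off, and its sum over 9 genes was 3573, 4212 and 2791 before and 7339, 6728 and 6113 after injury in wild type, and 2357 and 3249 against 1835 and 2986 in the labelled knockouts. Most of it was Malat1, which passed in wild type (1.23 ± 0.26, SE; limma adjusted p = 0.0455), while 7 of the 9 genes had fold changes below 0. The part of the cell types and of nuclear RNA in the members' differences was not tested.

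**Figure D4:**
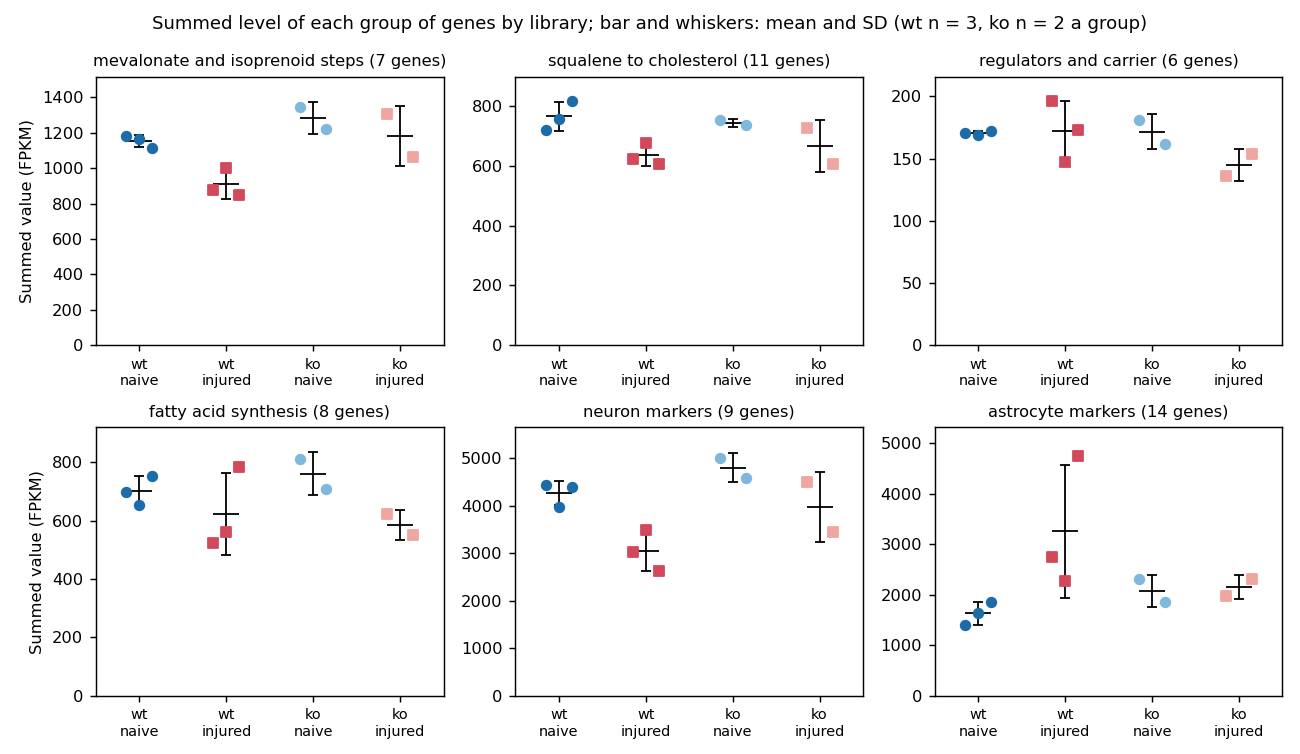
Summed deposited values (vertical axis) of the 4 groups of members and of the neuron and astrocyte markers, with a point per library and the group mean with its SD. In wild type, the mevalonate, squalene to cholesterol and neuron marker sums are lower in every injured library than in any naive one, and the astrocyte sum is higher.

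No member passed between genotypes in naive neurites. By limma, 0 of 32 passed (0.146% of all genes did), 13 fold changes of labelled knockout over wild type were below 0, against 43.7% of all genes, and the median was 0.02 against 0.06. With either pair left out 16 were below 0, with a median of -0.00315. Both pairs leave replicate 2 as the only labelled knockout naive library, so here they are the same check. The direction depended on scaling. After quantile normalization 25 were below 0 (median -0.10 against -0.01 over all genes). With equal library sums 26 were below 0 (-0.19 against -0.10), and with median ratios 20 (-0.06 against 0). At an unadjusted p under 0.05, 0 were higher, against 2.7% of all genes, and 0 lower, against 1.06%. The groups did not overlap in 4 that were higher (14.1% of all genes) and 5 that were lower (8.51%). Fdps was at 631 and 501 in the libraries labelled knockout naive, above the wild-type naive values (0.33 ± 0.16, SE, n = 2 and 3; 95% interval from -0.02 to 0.69). Cyp51 was at 69.0 and 72.5, below them (-0.39 ± 0.22, SE). Fdft1 was at 209 and 161, of which only the former, from the library whose Cpeb1 value lay within the wild-type naive range, was above the wild-type range. Nsdhl was at 17.5 and 36.0, where the low value is from that same library, and its fold change of -0.48 became 0.02 without it. For 19 of the 32 (59.4%) the 95% interval lay wholly within 1 log2 unit of 0, against 18% of all genes, not matched by level (median SE 0.359 and 0.579).

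No member passed between genotypes in injured neurites either, and the smallest p was that of Insig1. By limma 0 of 32 had an adjusted p under 0.05 (0.261% of all genes did). At an unadjusted p under 0.05, 1 was higher, against 4.5% of all genes, and 2 lower, against 5.95%. In all, 15 fold changes were below 0, against 53.1% of all genes, and the median was 0.04 against -0.05 (13 and 0.13 without the first pair, 15 and 0.03 without the Cpeb1 pair). Of the 7 mevalonate genes, 6 were above 0, with a median of 0.39, Idi1 was below 0, and 1 had an unadjusted p under 0.05. With 4 higher members that did not overlap between groups (9.72% of all genes), all of them mevalonate genes, the values were as follows. Acat2 was at 182 and 120 in labelled knockout injured libraries, the lower just above the highest wild-type injured value of 119 (0.91 ± 0.29, SE, n = 2 and 3; limma adjusted p = 0.307). Hmgcs1 was at 305 and 306 and lay above all 3 wild-type values (0.33 ± 0.17, SE; limma adjusted p = 0.512). Pmvk was at 119.5 and 82.5 (0.48 ± 0.22, SE), and Fdps at 493 and 433 (0.30 ± 0.16, SE).

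Insig1 was the 1 member lower without overlap (12.2% of all genes), with both labelled knockout injured values, 23.6 and 29.2, below the lowest wild-type injured value of 50.1. Its log2 fold change was -1.21 ± 0.32 (SE; unadjusted p = 0.00229, limma adjusted p = 0.197; 95% interval from -1.91 to -0.52). Lss was at 27.2 and 6.41, and the low replicate 2 gave a fold change of -1.20 ± 0.50 (SE; limma adjusted p = 0.423). Averaged over conditions, 0 of 32 passed in limma (0.204% of all genes did), 2 were higher at an unadjusted p under 0.05 (4.28% of all genes) and 2 lower (3.4%), with a median of 0.04 against 0.01. Those higher were Acat2 (0.46 ± 0.21, SE) and Fdps (0.32 ± 0.12, SE), and those lower were Insig1 (-0.57 ± 0.23, SE) and Lss (-0.77 ± 0.35, SE). These genotype values take in the wild-type injured library with a Cpeb1 value as low as that of labelled knockouts, and without the Cpeb1 pair the difference in injured neurites was -0.94 for Insig1 (limma adjusted p = 0.342) and 0.80 for Acat2 (limma adjusted p = 0.428).

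Whether injury differed between genotypes was tested as an interaction. It passed in limma for 0 of 32 members and 0% of all genes. At an unadjusted p under 0.05, 2 members were higher (1.93% of all genes) and 1 lower (4.3%), and 14 of the 32 estimates were below 0, against 56.8% of all genes. The higher were Acat2 (0.90 ± 0.41, SE) and Mvd (1.74 ± 0.79, SE), both with a limma adjusted p of 0.8. The lower was Insig1, at -1.29 ± 0.45 (SE; unadjusted p = 0.0137, limma adjusted p = 0.791), whose injury difference was 0.20 in wild type and -1.10 in the labelled knockouts. The interval of the interaction lay within 1 log2 unit of 0 for 6 members (18.8%), against 5.44% of all genes, not matched by level (median SE 0.507 and 0.819). For the other members the interval does not exclude a difference of that size between genotypes.

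CPEB1 binds the cytoplasmic polyadenylation element (CPE), and TTTTAT or TTTTAAT was searched on the sense strand in the longest annotated 3′ untranslated region of each gene. At least 1 was present in 18 of 32 members (56.2%) and in 63% of 13120 tested genes with such a region. Windows of 30 bases are shown for 3 members described above, with the last match of each region in capitals. They were picked after the values were seen, as those with a match among Insig1, Fdps, Lss, Acat2, Pmvk and Cyp51. Each had a value below the wild-type range in at least 1 library labelled knockout. So did other members, with an element (such as Nsdhl) and without (such as Dhcr7), so these windows do not tie an element to low values. Of the 4 members that lay higher without overlap in labelled knockout injured neurites, Hmgcs1 had 3 elements, and Acat2, Pmvk and Fdps had no match.
Insig1: ttttttttttacTTTTATtaaaggttcaaa
Lss: ttactaagatgtTTTTATttaaataaattt
Cyp51: agacttttttaTTTTAATttggcttaaggt

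The Insig1 site lies 16 nt from the annotated end of a region of 1842 nt that holds 2 elements, and that of Lss 73 nt from the end of 2411 nt. The Cyp51 site lies 1318 nt from the end of a region with 4 elements, of which another, a TTTTAT not put in capitals, overlaps its first base. Between labelled knockout and wild-type injured neurites, the 18 members with an element had 7 fold changes above 0 and 11 below, with a median of -0.14, and the 14 without had 10 above and 4 below, with a median of 0.13. In naive neurites the medians were 0.03 with and 0.02 without. The split is a description with no test, and it was not made for all tested genes. Region length was not matched: it ran from 847 to 5005 nt with an element and from 55 to 2008 nt without.

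Of 64 other tested genes of the pathway (sterol regulation, cholesterol transport and efflux, fatty acid supply and oxidation), 37 had fold changes above 0 for injury in wild type and 27 below, with a median of 0.20, and 1 passed. In the labelled knockouts 26 were above and 38 below, with a median of -0.09 and 0 passing in limma. The gene that passed was Elovl1, an elongase of very long saturated fatty acids. In wild type it was at 1.63, 1.28 and 10.6 before injury and at 14.1, 48.1 and 42.2 after it, without overlap (2.95 ± 0.63, SE; limma adjusted p = 0.0478). It passed in 6 of 23 other settings, with limma adjusted p from 0.0194 to 0.245, and the call was lost on leaving out any 1 library other than wild-type naive replicate 3. In the labelled knockouts Elovl1 was at 18.2 and 14.4 in naive and 5.78 and 7.499 in injured libraries, the opposite direction without overlap, and the interaction was -4.13 ± 0.99 (SE; limma adjusted p = 0.661).

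The 3 other pathway genes with the smallest p for the mean injury difference did not pass. Acacb, the mitochondrial form of acetyl-CoA carboxylase, was listed at 0 in all 3 wild-type naive libraries and at 0.744, 0.853 and 0.234 after injury. In the labelled knockouts it was at 0.022 and 0.010 before and at 3.25 and 3.72 after injury (limma adjusted p = 0.109). Acacb reached a value of 1 in these 2 injured libraries alone. It thus entered the test only through the group where it was high, and its place among the smallest p partly follows from the filter. Elovl2, an elongase of polyunsaturated fatty acids, was at 21.01, 20.0 and 18.4 against 13.5, 8.72 and 7.88 in wild type, and at 24.7 and 21.5 against 12.1 and 15.7 in the labelled knockouts, without overlap in either genotype (-0.82 ± 0.26, SE; limma adjusted p = 0.235). Lrp8, a lipoprotein receptor, was at 18.8, 13.3 and 15.0 against 7.59, 14.6 and 8.91, and at 21.2 and 20.3 against 9.69 and 7.99 (-0.87 ± 0.29, SE; limma adjusted p = 0.252).

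Some values share reads with other genes. Idi1 has a copy that is identical over the aligned stretch, Gm13502, with a mean level of 24.9 beside 71.7 for Idi1, so the division between them is uncertain. Acat2 is 97.7% identical to Acat3, whose mean was 0.46, and the copies of Fdps had mean levels of at most 0.117. The library kit does not mark strand, and the exons of Fdft1 overlap those of Ctsb on the opposite strand over 18.3% of their length, those of Scap overlap 5830462I19Rik over 13.2%, and those of Tm7sf2 overlap Vps51 on the same strand over 12.1%.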

How the data were processed

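RNA was measured in neurites of cultured mouse cortical neurons in 10 libraries. Each library started from 1 ng of RNA, which, per the labels' protocols, was amplified by Smart-seq2 (oligo-dT priming) and made into libraries with Nextera XT. Per the submitters' processing notes, STAR 2.4.2a, RSEM 1.2.21 and mm10 were used. The deposited values were taken as FPKM that the authors had divided by a library factor; neither is stated in the sources used here. At least 99.8% of the values in each library fell on a grid of 0.01 within 0.001 once multiplied by a factor, and the ratio of this factor to the TMM factor computed from the same table deviated from 1 by at most 0.00156. Depth was estimated from the steps of low values. Gene IDs were matched to GENCODE M21 (44548 of 45195).

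The 15712 genes that reached a value of 1 in 2 or more libraries were tested on log2(value + 1) with limma 3.58.1 (R 4.3.3): 4 group means over 10 libraries, trended moderation (6 residual and 6.8 prior degrees of freedom), and Benjamini-Hochberg adjustment over all tested genes with a threshold of 0.05. Fold changes are on the log2(value + 1) scale, which understates those of low genes. Comparisons were injury in each genotype and on average, genotype in each condition and on average, and the interaction. The fit was checked on simulated data. Values were given by library for members that passed, the 6 with the smallest p in each injury comparison, the 4 in each genotype comparison and the interaction, and the 3 highest and 3 lowest by mean. Members and lists were chosen with earlier results of these data known.

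Promoters came from the RefSeq table (GRCm38.p6). Copies were sought with blastn 2.17.0 among annotated transcripts (at least 95% identity over 150 nt and 50% of the shorter). Same-numbered libraries did not deviate together (correlations of deviations over 13 pairs from -0.0484 to 0.0409), so replicate numbers were not used as pairs. Alternatives were 11 settings and the leaving out of each of 10 libraries, plus 2 pairs of libraries left out, added after the data were seen.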

Additional observations from a re-analysis of the deposited data

How the results depend on the processing

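No member passed in any of the 7 comparisons, and this held in all alternatives but those that left out 1 library. Leaving out each library in turn gave 0 to 2 members for injury in wild type (2, Mvd and Acat2, without wild-type injured replicate 2) and 0 to 1 for the mean injury difference (1 without wild-type injured replicate 2, Mvd, and 1 without knockout injured replicate 1, Dhcr7). Of 768 values of named members under the alternatives, 765 kept their direction. These members were named for the smallest p in the same libraries, so their directions were largely fixed in advance. The 3 values that turned were Nsdhl between genotypes in naive neurites, at 0.0159 without knockout naive replicate 1. The others came, in alternatives chosen after seeing the data, without that library and wild-type injured replicate 3 or replicate 1 (leaving out 1 library at a time, -0.981 to 0.0159). The cause was not tested. Over all 32 members, directions depended on scaling. With equal library sums 12 fold changes were below 0 for injury in knockouts, against 26 in the analysis reported (all genes 6508 and 8822 of 15712). For genotype in naive neurites they were 26 against 13 (all genes 9260 and 6869).

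The members' median ranged from -0.54 to -0.19 for injury in wild type, from -0.31 to 0.09 in knockouts, and from -0.34 to -0.21 on average. Scaling to equal library sums moved the median of all genes to -0.21 for injury in wild type, 0.10 in knockouts, 0.20 for genotype in injured neurites and 0.30 for the interaction, where the members' median was 0.56. Genes called for injury in wild type were 149 (110 higher, 39 lower), against 80 higher and 112 lower with equal sums, 100 and 64 after quantile scaling and 105 and 55 with median ratios; the count was 25 with no filter, 77 with no trend, 17 with only the groups compared, 63 without the first pair and 35 without the Cpeb1 pair. Over all alternatives the genes called ranged from 17 to 311 for injury in wild type, 0 to 33 in knockouts (9 in the analysis reported) and 16 to 160 on average (89), from 5 to 52 for genotype in naive neurites (23), 10 to 57 in injured neurites (41) and 10 to 49 on average (32), and from 0 to 13 for the interaction (0). With a replicate block the members called were 0 in all comparisons and the genes called 146 for injury in wild type, 5 in knockouts and 102 on average. With 2 or 3 libraries a group, the median SE of a member was 0.321 for injury in wild type and 0.507 for the interaction, which limits the differences that can be seen.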
